A study of Danio rerio with 6 samples.

Results

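The neural crest specifiers described here were 7 transcription factor genes, chosen by Ensembl identifier from a table of 32057 zebrafish genes. They were sox10 (ENSDARG00000077467), sox9b (ENSDARG00000043923), foxd3 (ENSDARG00000021032), tfap2a (ENSDARG00000059279), tfap2c (ENSDARG00000040606), snai2 (ENSDARG00000040046) and snai1b (ENSDARG00000046019). The gene table used for names lists sox9b only as SOX9, a symbol shared by 2 zebrafish genes, and the name sox9b follows the identifier. Expression was measured by bulk RNA-seq of neural crest (NC) cells at 24 h post-fertilization (hpf), in 3 high-Wnt and 3 low-Wnt libraries. All embryos carried Tg(7XTCF:nls-mCherry)ia5, in which repeated TCF binding sites drive nuclear mCherry in cells that respond to canonical Wnt signals, and Tg(-7.2sox10:EGFP)ir937, in which a sox10 promoter fragment drives EGFP. NC cells, marked by EGFP, were sorted as high-Wnt where mCherry was high and as low-Wnt where it was low. Both populations were therefore gated on activity of the sox10 promoter, which limits what the level of sox10 itself can show between them. Neither the labels nor the methods say how many embryos were pooled or whether libraries with the same number shared embryos, so p-values measure only the spread between these libraries.

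NC cells arise at the border of the neural plate, leave the neural tube and form pigment cells, neurons, glia and much of the facial skeleton. Border signals, Wnts among them, switch on the specifier genes, which then maintain each other and open the way to migration and lineage choice. SoxE factors (sox10, sox9b) keep crest cells multipotent and later guide glial, pigment and cartilage fates. FoxD3 keeps crest precursors undifferentiated and holds back the melanocyte regulator mitfa in zebrafish. AP-2 factors (tfap2a, tfap2c) act at the border and in surface ectoderm as well as in crest, and Snail factors (snai1b, snai2) repress epithelial adhesion genes as crest cells delaminate.

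One library stood apart. Only 9230 genes in low-Wnt replicate 3 reached a TPM (transcript abundance per length, scaled to the same total in each library) of at least 1, and the remaining 5 libraries had between 13481 and 14417 such genes. In low-Wnt replicate 3 the TPM was under the mean of low-Wnt replicates 1 and 2 for 83.7% of 13187 genes. The median ratio was 0.243. These were the tested genes with a mean TPM of at least 1 in replicates 1 and 2. Genes lower in those replicates were left out, which can pull the ratio down. All 7 specifiers were lower in low-Wnt replicate 3 too, from 1.88-fold for snai1b to 29.9-fold for snai2. The comparisons were therefore made with and without this library, whose effect on the number of calls was known when they were set.

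With low-Wnt replicate 3 left out, tfap2a and foxd3 rose in high-Wnt cells, 1.72-fold and 1.44-fold on the log2(TPM + 1) scale, and snai2 fell to 0.554 of its low-Wnt level. The estimates of sox9b and tfap2c were larger, at 2.74-fold and 2.35-fold, but with more spread, and missed the threshold. Neither sox10, the gene whose promoter marked the sorted cells, nor snai1b passed. Without low-Wnt replicate 3, 12.7% of all tested genes passed, and the calls of foxd3 and snai2 ended under some other settings. With all 6 libraries no specifier passed, and the estimate for snai2 then lay in the other direction, at 1.55-fold. In bulk samples, fewer cells of a type and less RNA per cell cannot be told apart.

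In the fit of all 6 libraries (limma on log2(TPM + 1), Benjamini-Hochberg adjustment over 14163 tested genes), 0 of the 7 specifiers were differentially expressed (DE) at an adjusted p-value under 0.05, where 0.367% of all tested genes were. At an unadjusted p-value under 0.05 there were 4 specifiers (foxd3, tfap2a, tfap2c and sox9b), against 14.2% of tested genes. The same 4 genes had high-Wnt TPM values wholly above the low-Wnt values, where 22.4% of tested genes did, and none lay wholly below, where 5.57% did. The median log2 fold change was 1.05 over the specifiers and 0.51 over all tested genes. Without low-Wnt replicate 3, 12.7% of 15000 tested genes were DE. Of the specifiers, 2 were DE and higher in high-Wnt cells, where 7.17% of tested genes were, and 1 was DE and lower, where 5.57% were. The high-Wnt values of 4 specifiers then lay above both low-Wnt values, where those of 25.1% of tested genes did, and those of 1 lay below, where 22.6% did. Their median log2 fold change was then 0.52, against 0.05 over all tested genes. All 7 passed the filter on low TPM in both fits. sox9b was below 1 TPM in low-Wnt replicates 2 and 3, so it passed only through its high-Wnt values. tfap2c was below 1 TPM in low-Wnt replicate 3 and needed its high-Wnt values in the 6-library fit.

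**Figure D1:**
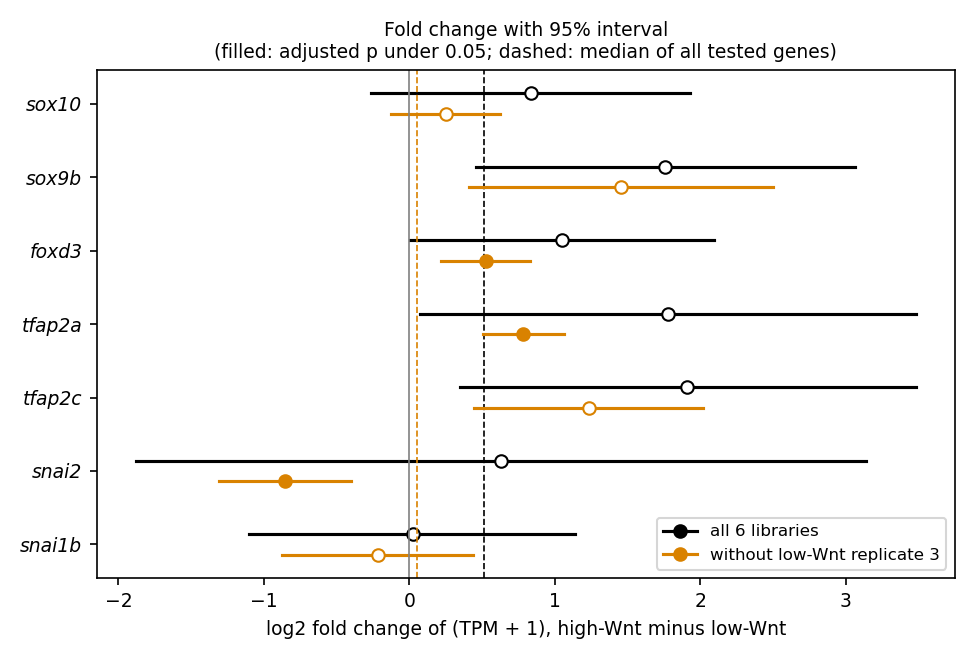
Log2 fold change of (TPM + 1), high-Wnt minus low-Wnt, for each specifier with its 95% interval, from all 6 libraries (black) and without low-Wnt replicate 3 (orange). Filled points passed the adjusted threshold, and dashed lines mark the median of all tested genes, 0.51 and 0.05. Without that library the intervals narrow, and snai2 and snai1b move to the other side of 0. The interval of snai1b holds 0 in both fits.

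sox10 had the highest TPM of the 7 in every library. It was at 243.7, 342.7 and 310.0 TPM in high-Wnt replicates 1 to 3, against 258.6, 239.6 and 72.9 TPM in low-Wnt replicates 1 to 3. The populations overlapped, since high-Wnt replicate 1 lay below low-Wnt replicate 1. sox10 averaged 298.8 ± 50.4 TPM over the high-Wnt libraries, against 190.4 ± 102.2 TPM over the low-Wnt libraries (SD, n = 3 each). With all 6 libraries sox10 had a log2 fold change of 0.83 (standard error 0.48, limma adjusted p = 0.462), and of 0.25 without low-Wnt replicate 3 (95% interval -0.12 to 0.62, limma adjusted p = 0.33). A change of up to 0.62 on the log2 scale is thus within the error of the 5 libraries.

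sox9b, a second SoxE gene, was among the lowest of the 7. It was at 7.63, 7.67 and 5.43 TPM in high-Wnt libraries, against 4.01, 0.63 and 0.52 TPM in low-Wnt libraries. Every high-Wnt value lay above every low-Wnt value, but low-Wnt replicates 1 and 2 differed widely. Over the 6 libraries sox9b had a log2 fold change of 1.76 (standard error 0.57, limma adjusted p = 0.216), and of 1.46 without low-Wnt replicate 3 (standard error 0.45, limma adjusted p = 0.071). With 2 low-Wnt libraries below 1 TPM, the added pseudocount of 1 understates this change, and with a pseudocount of 0.1 it was 2.49 over the 6 libraries and 2.00 over the 5.

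foxd3 was at 122.0, 136.1 and 127.6 TPM in high-Wnt libraries, against 82.0, 96.6 and 29.4 TPM in low-Wnt libraries. High-Wnt libraries lay close together, with a coefficient of variation of 5.50%, and above all low-Wnt libraries. In the 6-library fit foxd3 had a log2 fold change of 1.05 (standard error 0.45, limma adjusted p = 0.352). Without low-Wnt replicate 3 it was 0.52 (standard error 0.13, 95% interval 0.22 to 0.83, limma adjusted p = 0.0398). Centring each of these 5 libraries on its median gene, where 14.3% of tested genes were DE, gave 0.46 with a limma adjusted p of 0.062, and with no variance trend the limma adjusted p was 0.118, so both settings ended the call.

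**Figure D2:**
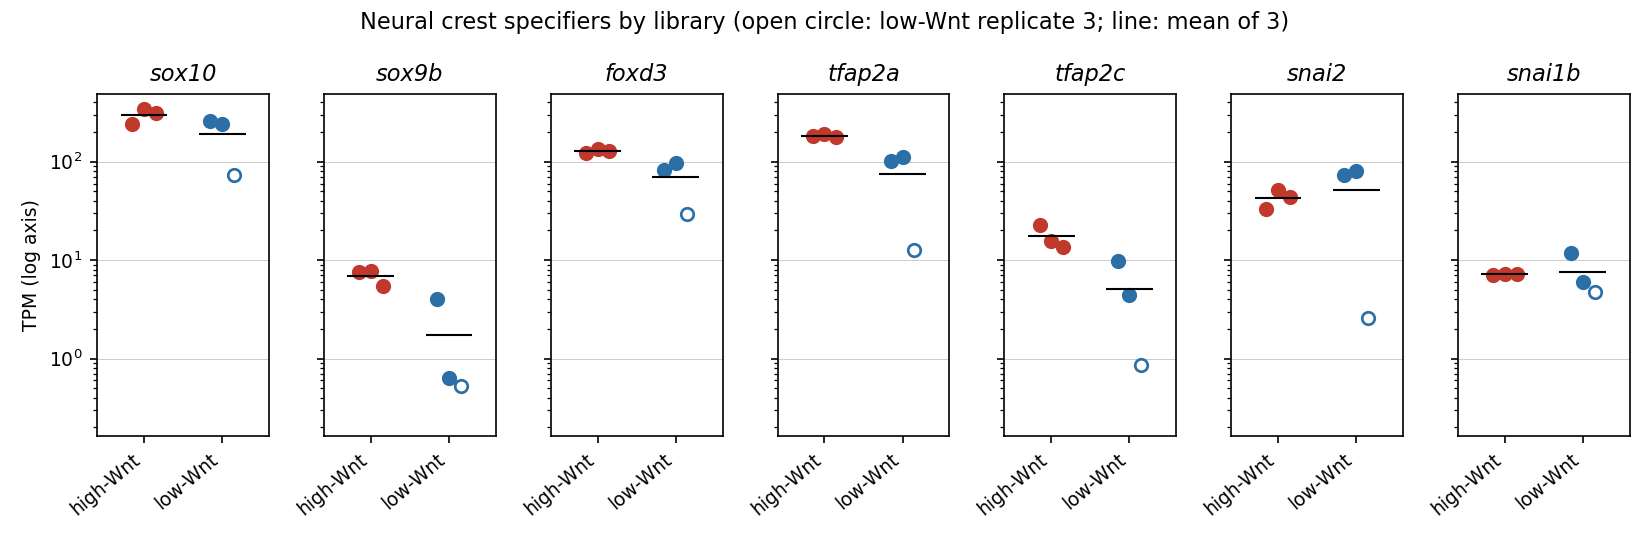
TPM of the 7 specifiers in each library, on a log axis, with high-Wnt libraries in red, low-Wnt libraries in blue, low-Wnt replicate 3 as an open circle and a line at the mean of the 3 libraries. The open circle is the lowest of the 6 values for every gene, 2.57 TPM for snai2 and 72.9 TPM for sox10, and the 3 high-Wnt values of sox9b, foxd3, tfap2a and tfap2c lie above all low-Wnt values.

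Both AP-2 genes had higher TPM in every high-Wnt library than in any low-Wnt library. tfap2a was at 180.7, 192.0 and 179.2 TPM in high-Wnt libraries, against 102.5, 110.8 and 12.6 TPM in low-Wnt libraries. Its values were tight within high-Wnt cells (184.0 ± 7.00 TPM, SD, n = 3) and within low-Wnt replicates 1 and 2. Over the 6 libraries tfap2a had a log2 fold change of 1.78 (standard error 0.74, limma adjusted p = 0.335), and of 0.78 without low-Wnt replicate 3 (standard error 0.12, 95% interval 0.51 to 1.06, limma adjusted p = 0.00796). This was the smallest adjusted p-value of the 7, and the call held in all 6 fits without that library.

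tfap2c was less abundant, at 22.9, 15.8 and 13.4 TPM in high-Wnt libraries, against 9.85, 4.39 and 0.86 TPM in low-Wnt libraries. The groups did not overlap, although both spread widely. tfap2c had a 6-library log2 fold change of 1.91 (standard error 0.68, limma adjusted p = 0.262), and of 1.23 without low-Wnt replicate 3 (standard error 0.34, 95% interval 0.45 to 2.02, limma adjusted p = 0.0515). Quantile normalization of the same 5 libraries, where 12.3% of tested genes were DE, gave a limma adjusted p of 0.0496, so this gene sat at the threshold itself.

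snai2, a Snail gene, was at 32.9, 51.2 and 44.0 TPM in high-Wnt libraries, against 73.0, 80.6 and 2.57 TPM in low-Wnt libraries. Low-Wnt replicates 1 and 2 had the 2 highest values and low-Wnt replicate 3 the lowest. Over the 6 libraries snai2 had a log2 fold change of 0.63 (standard error 1.09, limma adjusted p = 0.765), and of -0.85 without low-Wnt replicate 3 (standard error 0.20, 95% interval -1.31 to -0.40, limma adjusted p = 0.0297). The direction for snai2 thus rests on 1 library, and with no variance trend the limma adjusted p over the 5 libraries was 0.0742, which ended the call. The ratio of low-Wnt replicate 3 to the mean of replicates 1 and 2 was compared over the 13187 tested genes with such a mean of at least 1. A ratio as low as that of snai2 was found for 7.77% of them, and for 28.9% as low as that of tfap2a.

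snai1b hardly varied in high-Wnt cells, with 7.10, 7.18 and 7.23 TPM, against 11.8, 6.03 and 4.75 TPM in low-Wnt libraries. The high-Wnt values lay between the highest and the next of the low-Wnt values. Over the 6 libraries snai1b had a log2 fold change of 0.02 (standard error 0.49, limma adjusted p = 0.983), and of -0.22 without low-Wnt replicate 3 (95% interval -0.87 to 0.44, limma adjusted p = 0.64). Its sign changed with the scaling, being -0.58 after quantile normalization of the 6 libraries.

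A rank within the library does not move with a factor that multiplies all TPM of that library. Each specifier was therefore also placed among the genes with a TPM above 0 in its library. This percentile does move with the number of genes a library detects. For sox9b it was 33.2 at 0.52 TPM in low-Wnt replicate 3, against 17.1 at 0.63 TPM in low-Wnt replicate 2. The ranks of low-Wnt replicate 3 are thus not free of the shift of that library. sox10 was at the 97.6 to 98.1 percentile in high-Wnt libraries, against 97.3, 96.9 and 92.9 in low-Wnt libraries. foxd3 was at 95.2 to 95.5 in high-Wnt libraries, against 91.8, 92.5 and 88.0. tfap2a was at 96.6 to 96.8, against 93.2, 93.4 and 81.3. In these 3 abundant genes the high-Wnt ranks were all above the low-Wnt ranks. For sox10 the margin was narrow, at 97.6 in high-Wnt replicate 1 against 97.3 in low-Wnt replicate 1. Its TPM in those libraries was in the other order, at 243.7 against 258.6, so this separation is not one of TPM. The ranks of tfap2c (72.9 to 80.7 in high-Wnt libraries, against 42.5 to 64.1) and sox9b (57.1 to 63.4, against 17.1 to 47.6) were separated as well. Ranks were separated in this direction for 5 of the 7 specifiers, where they were for 32.5% of all tested genes. snai2 was at 85.4 to 89.0 in high-Wnt libraries, against 90.8, 91.3 and 61.4, and snai1b was at 60.7 to 62.6, against 67.2, 53.8 and 70.5. The ranks thus kept low-Wnt replicate 3 far below the rest for snai2 and tfap2a. They placed it highest for snai1b, although snai1b had its lowest TPM there, at 4.75.

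**Figure D3:**
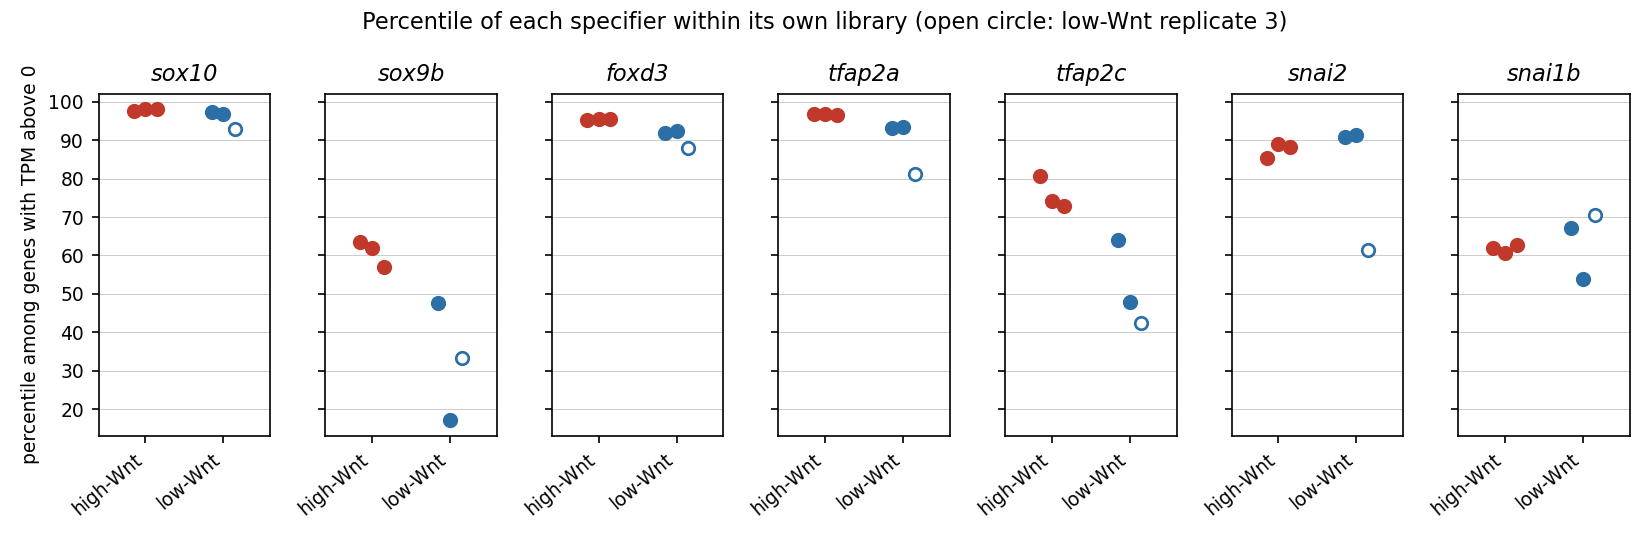
Percentile of each specifier among the genes with a TPM above 0 in its own library, with high-Wnt libraries in red, low-Wnt libraries in blue and low-Wnt replicate 3 as an open circle. All 3 high-Wnt libraries lie above the low-Wnt libraries for sox10, sox9b, foxd3, tfap2a and tfap2c, and snai2 and snai1b overlap.

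The balance between specifiers was compared as the ratio of 2 of them in the same library, for the SoxE, AP-2 and Snail pairs and for foxd3 over sox10. The TPM of sox10 was 31.9, 44.7 and 57.1 times that of sox9b in high-Wnt libraries, against 64.5, 380.3 and 140.3 times in low-Wnt libraries. The values of 380.3 and 140.3 divide by a sox9b level under 1 TPM, so their size is uncertain. On the log2(TPM + 1) scale this ratio averaged 5.24 ± 0.39 over high-Wnt and 6.17 ± 0.90 over low-Wnt libraries (SD, n = 3 each). The difference was -0.93 (exact permutation test, two-sided, p = 0.1, which is the lowest value 3 against 3 can give, and 0.4 after adjustment over the 4 ratios computed), and on this scale the nearest libraries of the 2 populations both rounded to 5.60. It was -1.21 without low-Wnt replicate 3, -0.41 without low-Wnt replicate 2 and -1.65 with a pseudocount of 0.1. With sox9b this low, the size of the difference depends on the pseudocount, and no change of balance is drawn from it. The ratio of tfap2a to tfap2c overlapped, at 7.88, 12.2 and 13.3 in high-Wnt libraries, against 10.4, 25.2 and 14.7 (log2 difference -0.14, exact permutation p = 0.9, and -0.45 without low-Wnt replicate 3). The ratio of foxd3 to sox10 was 0.501, 0.397 and 0.411 in high-Wnt libraries, against 0.317, 0.403 and 0.402 (log2 difference 0.21, exact permutation p = 0.4, and 0.28 without low-Wnt replicate 3). The ratio of snai2 to snai1b was 4.63, 7.13 and 6.08 in high-Wnt libraries, against 6.17, 13.4 and 0.541 (log2 difference 0.60, exact permutation p = 0.9, and -0.64 without low-Wnt replicate 3). snai2 was thus the more abundant of the Snail pair in 5 libraries and the less abundant in low-Wnt replicate 3.

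Other crest specifiers, listed by symbol, held further members of the same families. The list was not limited to transcription factors and also held crestin, a crest marker transcript. Of 16 genes, 14 were tested with all 6 libraries and none was DE (limma), where 0.367% of all tested genes were. Without low-Wnt replicate 3, 15 were tested, and 5 were DE and higher in high-Wnt cells and 1 DE and lower. Of all tested genes, 7.17% were DE and higher and 5.57% DE and lower. The median log2 fold change was 0.37 against 0.05 over all tested genes. The other gene listed as SOX9 (ENSDARG00000003293) was at 77.1, 81.2 and 80.7 TPM in high-Wnt libraries, against 30.5, 48.9 and 19.2 TPM in low-Wnt libraries, and rose by 1.02 on the log2 scale (standard error 0.20, limma adjusted p = 0.0181). It was far more abundant than sox9b in every library.

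Among Snail genes, snai1a rose where snai2 fell, without low-Wnt replicate 3. With all 6 libraries both estimates were above 0, at 1.79 for snai1a and 0.63 for snai2, and neither was DE. The TPM of snai1a was 140.5, 99.0 and 94.1 in high-Wnt libraries, against 58.0, 43.5 and 11.4 in low-Wnt libraries. Its log2 fold change was 1.11 without low-Wnt replicate 3 (standard error 0.21, limma adjusted p = 0.0165), and the difference between the 2 Snail genes was not itself tested. For the remaining AP-2 genes of the list, TFAP2B and TFAP2E, the log2 fold changes were 0.54 and 0.33 with limma adjusted p-values of 0.143 and 0.109. twist1b and twist1a, basic helix-loop-helix factors of migrating and skeletogenic crest, rose by 1.41 (limma adjusted p = 0.00922) and 0.89 (limma adjusted p = 0.0134). For twist1a, low-Wnt replicate 3 was at 335.6 TPM, within the high-Wnt range of 288.8 to 395.9 TPM. One of the 2 genes listed as MYC (ENSDARG00000007241) rose by 0.55 (limma adjusted p = 0.0286), and MYCN fell by 0.61 on the log2 scale (limma adjusted p = 0.0298), where its estimate with all 6 libraries was 0.49 (limma adjusted p = 0.755). crestin, a transcript used as a pan-crest marker in zebrafish, was at 28.7, 26.0 and 27.2 TPM in high-Wnt libraries, against 18.5, 18.6 and 4.51 TPM in low-Wnt libraries (log2 fold change 0.53 without low-Wnt replicate 3, limma adjusted p = 0.0574).

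**Figure D4:**
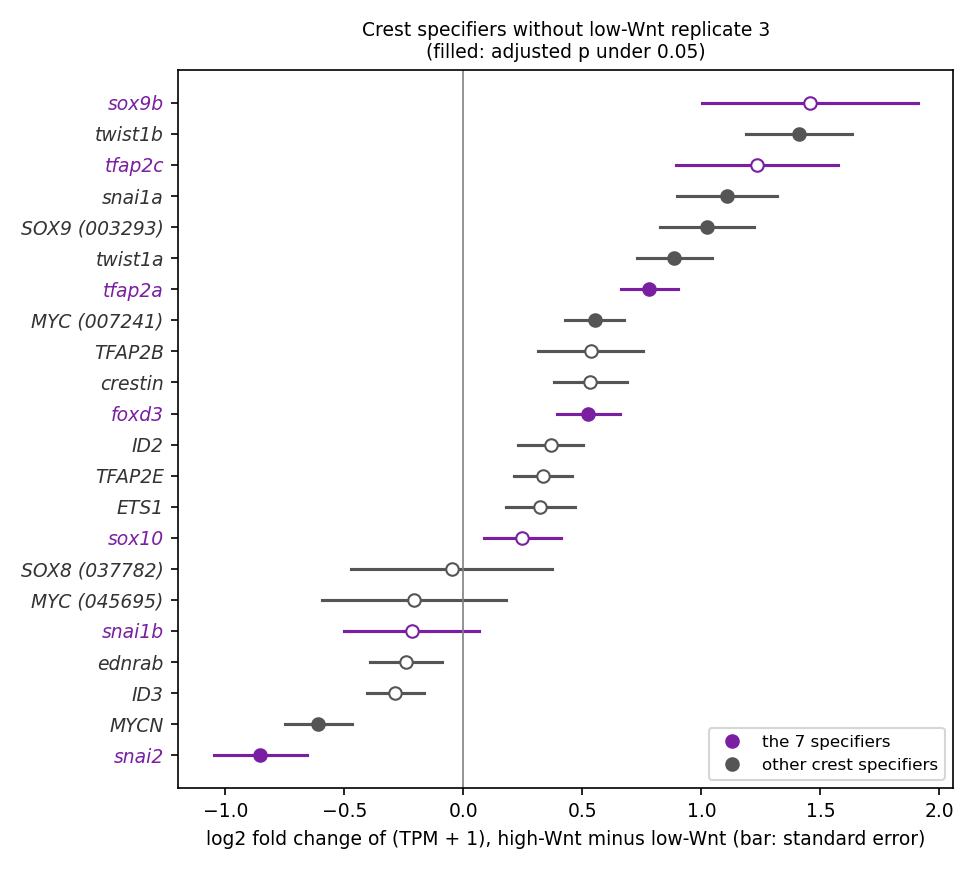
Log2 fold change of (TPM + 1), high-Wnt minus low-Wnt, without low-Wnt replicate 3. The 7 specifiers are purple, and the 15 tested genes of the list of other crest specifiers are grey. Bars are standard errors, and filled points are genes past the adjusted threshold. Numbers in brackets are the last digits of the identifier where 2 genes share a symbol. Values run from 1.46 for sox9b to -0.85 for snai2, with snai1a at 1.11.

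Genes of the neural plate border act upstream of the specifiers. Of 15 such genes, 14 were tested with all 6 libraries and none was DE, where 0.367% of all tested genes were. Without low-Wnt replicate 3, 1 of 15 was DE, and higher in high-Wnt cells, where 7.17% of all tested genes were. The median log2 fold change of the 15 was 0.24. The DE gene was PAX3 (ENSDARG00000010192), a border factor, with 8.98, 9.66 and 11.3 TPM in high-Wnt libraries, against 3.57, 4.43 and 3.08 TPM in low-Wnt libraries (log2 fold change 1.14, limma adjusted p = 0.0199). Of 7 genes known to respond to Wnt signals, none was DE and higher in high-Wnt cells in either fit. With shares of 0.367% (DE in either direction, 6 libraries) and 7.17% over all tested genes, this is no result about so short a list. Their median log2 fold change was 0.76 with all 6 libraries, against 0.51 over all tested genes. Without low-Wnt replicate 3 it was -0.14, against 0.05. LEF1 and TCF7 were then at 0.33 and 0.30, and sp5l, NKD1, AXIN2 and dkk1b at -0.52, -0.27, -0.14 and -0.095, none of them DE. CCND1, a cell cycle gene of that list, was DE and lower without that library (log2 fold change -0.89, limma adjusted p = 0.00529), and its estimate with all 6 libraries was 0.19 (limma adjusted p = 0.904). AXIN2, a direct target and feedback inhibitor of the pathway, was at 26.2, 20.4 and 18.0 TPM in high-Wnt libraries, against 24.0, 23.2 and 1.47 TPM in low-Wnt libraries. The populations thus overlapped for this gene, and the label of high and low Wnt rests on the reporter.

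Crest markers were detected in all libraries, and so were markers of other cell types. With all 6 libraries none of these markers was DE (limma), where 0.367% of all tested genes were. The lowest limma adjusted p-values were 0.0657 for actc1b and 0.0712 for krt5. The 5 epidermal markers, none of them at 0, summed to 1091 to 1374 TPM in high-Wnt libraries, against 500.3, 644.0 and 214.4 TPM in low-Wnt libraries. krt4, an epidermal keratin, was at 816.1, 1050.3 and 999.3 TPM in high-Wnt libraries, against 291.5, 386.3 and 52.6 TPM, and it was DE and higher without low-Wnt replicate 3 (limma adjusted p = 0.0028). krt5 was DE and higher as well (log2 fold change 3.07, limma adjusted p = 0.00744). TP63, a factor of basal epidermis, was DE and lower (log2 fold change -0.71, limma adjusted p = 0.0283), with an estimate of 0.07 over all 6 libraries, and epcam had a log2 fold change of 0.08. These keratins moved in the same direction as tfap2a and tfap2c, which surface ectoderm also expresses, and their part in the result was not tested. The 4 neural markers summed to 129.2 to 151.1 TPM in high-Wnt libraries, against 60.6, 63.5 and 18.9 TPM. Of these, 3 (SOX2, SOX3 and ELAVL3) were DE and higher without low-Wnt replicate 3, where 7.17% of all tested genes were. The 2 muscle markers summed to 1012 to 1690 TPM in high-Wnt libraries, against 400.9, 389.7 and 543.6 TPM, and actc1b, a muscle actin, was DE and higher without low-Wnt replicate 3 (limma adjusted p = 0.00529). The 3 blood markers summed to 278.9 to 341.8 TPM, against 252.6 to 358.1 TPM, the 8 otic genes to 41.6 to 43.6 TPM, against 44.0 to 58.6 TPM, and the 2 endothelial markers to at most 1.78 TPM in any library. Of the otic genes, FGF8 (ENSDARG00000003399), a growth factor, was DE and lower without low-Wnt replicate 3 (log2 fold change -1.52, limma adjusted p = 0.0276). The part of neural and muscle RNA in the levels of the specifiers was not tested either.

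The specifiers also differed in how alike their patterns were over the libraries. Over the 6 libraries, Pearson's r of log2(TPM + 1) was highest between foxd3 and tfap2a, at 0.995, and it was 0.976 over the 5 libraries without low-Wnt replicate 3. For sox9b and tfap2c it was 0.934 and 0.963. For snai2 and tfap2c it was 0.675 over the 6 libraries and -0.905 over the 5. Of tested genes, 99.7% had a lower r with foxd3 than tfap2a had over the 6 libraries, and 98.3% over the 5. With tfap2c, 92.5% had a lower r than sox9b over the 6 and 98.0% over the 5. Against snai2 these shares were 43.2% and 2.9%. The points behind each r share their population and, over the 6 libraries, the shift of 1 library, and r is given as a description. Of the other named genes tested, the closest to foxd3 over the 6 libraries were RFNG and cdh1, the closest to tfap2a were LRRN1 and tnfrsfa, and the closest to sox10 were ARPP19 and SFT2D1. Among the closest to tfap2c was srcap, and the closest to sox9b were si:dkey-261m9.7 and scel, to snai2 kdm2aa and si:dkey-286j15.1, and to snai1b PKP1 and kdm4c. Taking the 2 closest of each specifier, the r of the 14 genes was at least 0.992, and 0 of the 14 were among the 2 closest without low-Wnt replicate 3.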

How the data were processed

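Smart-seq2 libraries were made from sorted NC cells. Reads were aligned by STAR to GRCz11, and the authors deposited RSEM estimates in TPM for each Ensembl gene. TPM keeps no sequencing depth, so no counting interval was computed. The authors tested counts with edgeR, and TPM values are not counts, so limma 3.58.1 (R 4.3.3, moderated variances with a trend, model on population only) was run on log2(TPM + 1) over all genes whose TPM reached 1 in 3 or more libraries (2 or more where a library was left out). Fold changes on this scale understate the change of genes with low TPM. Ratios used scipy 1.17.1 and plots matplotlib 3.10.9 (Python 3.11.15).

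Symbols came from a table that named 28988 of the 32057 identifiers. List entries without an exact match were matched without their final letter, to every gene of that symbol, a step chosen after the table was seen. The specifiers and lists were chosen with earlier results of these data known. All 7 specifiers were named, and for each the 2 other genes with a symbol and the highest r, of which 1 is not reported here. Alternatives were the pseudocount, filters, scaling, variance trend, library weights, replicate block and each library left out. Sequences and genome positions were not used here.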

Additional observations from a re-analysis of the deposited data

How the results depend on the processing

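With all 6 libraries, 0 specifiers were DE under every alternative other than sample quality weights, which gave 4 higher and 1 lower where 4128 of 14163 tested genes were DE. Leaving out each library in turn gave 0 to 2 higher and 0 to 1 lower, with calls only without low-Wnt replicate 3 (1912 of 15000 tested genes DE). Without any other library, 0 of the 14699 to 14805 tested genes were DE, so the 0 specifiers there are no result about them. Other settings combined with leaving that library out gave 1 to 3 higher and 0 or 1 lower: 2 and 1 with a pseudocount of 0.1 (1686 of 15000 tested genes DE), 3 and 1 with quantile normalization (1838 of 15000), 1 and 1 with median centring (2146 of 15000), 1 and 0 with no variance trend (1359 of 15000), and 3 and 1 with a mean TPM of at least 5 (1747 of 9147). Of 132 log2 fold changes under alternatives, 100 kept their direction and side of the threshold. A further 16 kept their direction and passed the threshold newly, and 16 reversed. Some of the reversed values, all of them of snai2, passed the threshold as well. The direction held under every alternative run for sox10, foxd3, tfap2a, tfap2c and sox9b, though sox9b dropped out at a mean TPM of at least 5 over 6 libraries. snai1b reversed to -0.58 with quantile normalization, -0.57 with median centring and -0.07 without low-Wnt replicate 2, and over the libraries left out in turn it lay between -0.22 and 0.36. Without low-Wnt replicate 3 it was -0.22, also with no variance trend or a mean TPM of at least 5, -0.23 with a pseudocount of 0.1, -0.29 with quantile normalization and -0.28 with median centring. snai2 reversed to -0.71 with sample quality weights and, without low-Wnt replicate 3, to -0.85 (also with no variance trend, where its adjusted p was 0.0742, or a mean TPM of at least 5), -0.87 with a pseudocount of 0.1, -0.77 with quantile normalization and -0.91 with median centring, and over the libraries left out in turn it lay between -0.85 and 1.40. The difference in the ratio of tfap2a to tfap2c was -0.14 and reversed to 0.08 without high-Wnt replicate 1 and 0.30 without low-Wnt replicate 2 (-0.45 to 0.30 over the libraries left out in turn), and that of snai2 to snai1b was 0.60 and reversed to -0.64 without low-Wnt replicate 3 (-0.64 to 1.48 over the libraries left out in turn). Over the libraries left out in turn, the difference for sox10 to sox9b lay between -1.21 and -0.41 and that for foxd3 to sox10 between 0.10 and 0.28. The cause was not tested.

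Over all genes, 37 were DE and higher and 15 lower with the 6 libraries. The numbers were 8 and 9 with a pseudocount of 0.1, 1 and 3 with no filter, 2 and 11 with a mean TPM of at least 5, 92 and 85 with quantile normalization, 11 and 35 with median centring, 4 and 9 with no variance trend, 2571 and 1557 with sample quality weights, and 0 to 1076 and 0 to 836 with one library left out. With the replicate block they were 135 and 33, and 0 specifiers were DE. The deviations of same-numbered libraries from their population mean had an r of 0.03, -0.01 and 0.14. Low-Wnt deviations hold the shift of low-Wnt replicate 3, so a low r cannot exclude shared embryos. As the labels name no pairing, the numbers were not taken as one. With no depth in TPM, how much of the spread is counting error cannot be given.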

Other observations

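Lineage genes downstream of the specifiers were listed by symbol in the same way. None was DE with all 6 libraries (limma), where 0.367% of all tested genes were. Without low-Wnt replicate 3, 6 of 13 pigment genes were DE and higher in high-Wnt cells and none was DE and lower. Their median log2 fold change was 0.84. Of all tested genes in that fit, 7.17% were DE and higher and 5.57% DE and lower. MITF (ENSDARG00000003732), the melanocyte regulator, was at 187.7, 180.8 and 168.0 TPM in high-Wnt libraries, against 73.5, 98.2 and 45.5 TPM in low-Wnt libraries (log2 fold change 1.06, limma adjusted p = 0.00663). KIT, a receptor of migrating melanocytes, had the highest fold change of the list at 2.32 (limma adjusted p = 0.00857), and the melanin enzymes DCT and TYR rose by 1.23 and 0.84. Of 14 skeletal genes 5 were DE and higher, among them PRRX1 (ENSDARG00000042027, log2 fold change 1.23) and BARX1 (0.67), and none was DE and lower. Another of these 5, twist1a, was also counted in the list of other crest specifiers. Estimates below 0, none of them DE, were those of DLX2 (ENSDARG00000017174, -0.74), DLX5 (-0.15) and the other PRRX1 (ENSDARG00000033971, -0.12). Of 9 neural and glial genes other than foxd3, 7 were tested and 3 were DE and higher, among them neurog1 (1.71) and ELAVL3 (1.31). foxd3, which is also used in glial precursors, rose by 0.52 in the same fit.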
